A study of Mus musculus with 90 samples.

Results

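The genes described are 10 of the 27654 genes in the deposited count tables. They are Cat, Sod1, Sod2, Gpx1, Gclc, Gclm, Gsr, Nqo1, Txnrd1 and Srxn1, picked by symbol as enzymes that remove reactive oxygen species or that serve as standard readouts of the transcription factor NRF2. They were chosen with earlier results of these data known. All 10 symbols were present, and all 10 passed the filter on low counts in every comparison. The study compared livers with and without the glucocorticoid receptor in hepatocytes, on a full and on a restricted food supply and around the clock, by bulk sequencing of polyadenylated RNA from whole liver of adult male mice.

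Superoxide leaking from respiration is converted to hydrogen peroxide by superoxide dismutases, and catalase and glutathione peroxidase break the peroxide down. Glutathione, which hepatocytes make and export in large amounts, supplies the electrons for the peroxidase, while a parallel line of thioredoxin, peroxiredoxins and their reductases repairs oxidised protein thiols. NRF2, encoded by Nfe2l2, is held in the cytoplasm and sent for degradation by KEAP1 until oxidants or electrophiles modify KEAP1. It then pairs with small MAF proteins on antioxidant response elements, where BACH1 can act as a repressor, and turns on genes for glutathione synthesis, thioredoxin recycling and quinone reduction.

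There were 90 libraries, each from 1 mouse. The time series sampled liver at zeitgeber time (ZT, hours after lights on) 0, 4, 8, 12, 16 and 20 in C57BL/6J mice of genotype GRfl/fl (WT in the sample titles, with both receptor alleles flanked by loxP sites) and GRfl/fl x Alb-Cre (GR LKO, in which albumin-driven Cre deletes the receptor in hepatocytes while other liver cells keep it). Each genotype was kept on chow either under night-restricted feeding, called control feeding from here on, or under caloric restriction that ended at 40% fewer calories, also given at night. The restricted series held 3 mice in each of its 12 groups, 36 in all, and the control series held 3 or 4 mice in each of its 12 groups, 42 in all. A separate diet experiment compared 3 control and 3 calorie-restricted C57BL/6J WT mice at ZT12, and a corticosterone experiment compared 3 control and 3 corticosterone-treated C57BL/6J WT mice at ZT12. The paper states that the mice of the corticosterone experiment were under night-restricted feeding and that vehicle was injected into the controls. The controls of the diet experiment carry AL in their titles, whereas their treatment label is night-restricted feeding. Total counts per library were 14235473 to 20788575 in the restricted series, 10057544 to 17089004 in the control series, 36442195 to 39492146 in the diet experiment and 13739631 to 16077943 in the corticosterone experiment. Each of these sets came as its own table, so the 2 diets of the time series sit in different tables and library batches. Diet and batch cannot be told apart there. Genotypes were therefore compared within a diet. The interaction at ZT12 and the diet contrast in WT libraries of the time series use both tables, so diet and batch coincide in them.

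The genotype labels were checked first on Nr3c1, the gene of the glucocorticoid receptor. At ZT12 under caloric restriction Nr3c1 stood at 103, 98.0 and 103 CPM (counts relative to library size) in the 3 WT mice and at 30.9, 32.1 and 30.6 CPM in the 3 GR LKO mice. At ZT12 under control feeding the 4 WT mice had 83.7, 89.1, 76.1 and 88.9 CPM and the 4 GR LKO mice 18.8, 20.8, 20.3 and 25.2 CPM. Every GR LKO mouse lay below every WT mouse at each of the 6 time points on both diets, with log2 fold changes of -1.70 (edgeR adjusted p 8.33e-05) and -1.98 (edgeR adjusted p 5.05e-05) at ZT12. The Nr3c1 RNA that remained is read from bulk tissue that holds other cells and, in hepatocytes, any transcript that outlasts the deletion. The tissue label was checked on 7 hepatocyte markers, none of which was at 0 in any group; Alb had the highest CPM of them, and their summed level at ZT12 ran from 67952 CPM in a control-fed GR LKO mouse to 172110 CPM in a restricted WT mouse.

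Levels are given as CPM scaled by the trimmed mean of M values (TMM), which compares a gene between mice but not 1 gene with another. A gene is called changed when edgeR's quasi-likelihood test gave a Benjamini-Hochberg adjusted p under 0.05 over all genes tested, and the log2 fold change is the second group minus the first, so positive values are higher in restricted, corticosterone-treated or GR LKO mice. In the diet experiment at ZT12, 3 of the 10 genes were called, Gclc and Nqo1 higher and Srxn1 lower, where 47.1% of the 13062 genes tested were called. The median log2 fold change was -0.09 for the 10 and -0.00 for all genes. After corticosterone, 1 of the 10 was called, Sod2, lower, where 8.11% of 11523 genes were called. The medians were 0.02 and -0.01. Whether the 10 differ from the genes tested as a whole was not tested.

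Between the genotypes under caloric restriction, 3 of the 10 were called at ZT12, all higher in GR LKO (Cat, Gpx1 and Srxn1), where 15.3% of 11759 genes were called, and 2 at ZT16, both higher (Cat and Gpx1), where 4.54% of 11905 were called. ZT12 was the time at which all 10 log2 fold changes were above 0, with a median of 0.42 against -0.00 for all genes tested. At ZT0 edgeR called 0 of the 10 and DESeq2 0, where 0.502% and 3.53% of all genes were called; the unadjusted p was under 0.05 for 5 of the 10 and for 1606 of 12140 genes. At ZT4 it called 0 and DESeq2 1, where 0.690% and 3.74% of all genes were called; the unadjusted p was under 0.05 for 2 of the 10 and for 1755 of 12025 genes. At ZT8 it called 0 and DESeq2 1, where 2.55% and 5.90% of all genes were called; the unadjusted p was under 0.05 for 2 of the 10 and for 2092 of 12070 genes. At ZT20 it called 0 and DESeq2 0, where 1.47% and 5.87% of all genes were called; the unadjusted p was under 0.05 for 2 of the 10 and for 2340 of 12076 genes. Tested at single times in 1 edgeR fit of all 12 groups of the diet, the calls were 0 at ZT0 and ZT20, 2 at ZT4 (Gsr and Txnrd1), 1 at ZT8 (Gclc), 5 at ZT12 (Gclc and Gclm added) and 3 at ZT16 (Txnrd1 added). It called 169 of 13041 genes at ZT0, and its share of all genes at the later times was 2.75%, 5.55%, 21.5%, 7.86% and 8.64% in that order. With all 6 time points in 1 fit, which uses 18 mice of each genotype and tests the mean genotype difference over the day, 6 of the 10 were called: Cat, Sod1, Gpx1 and Gclc higher and Gsr and Txnrd1 lower, where 30.0% of 13041 genes were called.

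Between the genotypes under control feeding, edgeR on the libraries of 1 time called 0 of the 10 at each time point. In 1 edgeR fit of all 12 groups of the diet 2 were called at ZT0, Sod2 and Gpx1, where 4.91% of all genes were, and 0 at the other 5 times. Its share of all genes was 0.374% at ZT4, 0.281% at ZT8, 4.18% at ZT12, 3.65% at ZT16 and 3.02% at ZT20. DESeq2 called 1 at ZT0, 1 at ZT16 and 0 at the other 4 times, where its share of all genes was 3.55% at ZT0, 1.61% at ZT4, 3.22% at ZT8, 4.93% at ZT12, 5.43% at ZT16 and 2.56% at ZT20. The share of all genes called by edgeR was 0.536% at ZT0, 0.195% at ZT4, 1.43% at ZT8, 2.08% at ZT12, 1.98% at ZT16 and 0.420% at ZT20. An unadjusted p under 0.05 was found for 2 of the 10 and 1798 of 11749 genes at ZT0, 3 of the 10 and 1152 of 11817 genes at ZT4 and 1 of the 10 and 1301 of 11582 genes at ZT8. It was found for 1 of the 10 and 1444 of 11428 genes at ZT12, 3 of the 10 and 1950 of 11723 genes at ZT16 and 1 of the 10 and 1346 of 11906 genes at ZT20. Over the day, with 22 WT and 20 GR LKO mice, 3 of the 10 were called, Sod1, Gpx1 and Nqo1, all higher in GR LKO, where 17.6% of 12834 genes were called. Whether the genotype difference itself differed between the diets was tested at ZT12 by the interaction of genotype and diet: edgeR called 0 of the 10, where 1.01% of 12225 genes were called, and DESeq2 called 2, Cat and Srxn1, where it called 3.71% of all genes. The unadjusted p was under 0.05 for 4 of the 10 and for 1742 of 12225 genes. All 10 interaction estimates were above 0, with a median of 0.35 against 0.00 for all genes. At the other time points the difference between the diets was not tested.

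**Figure D1:**
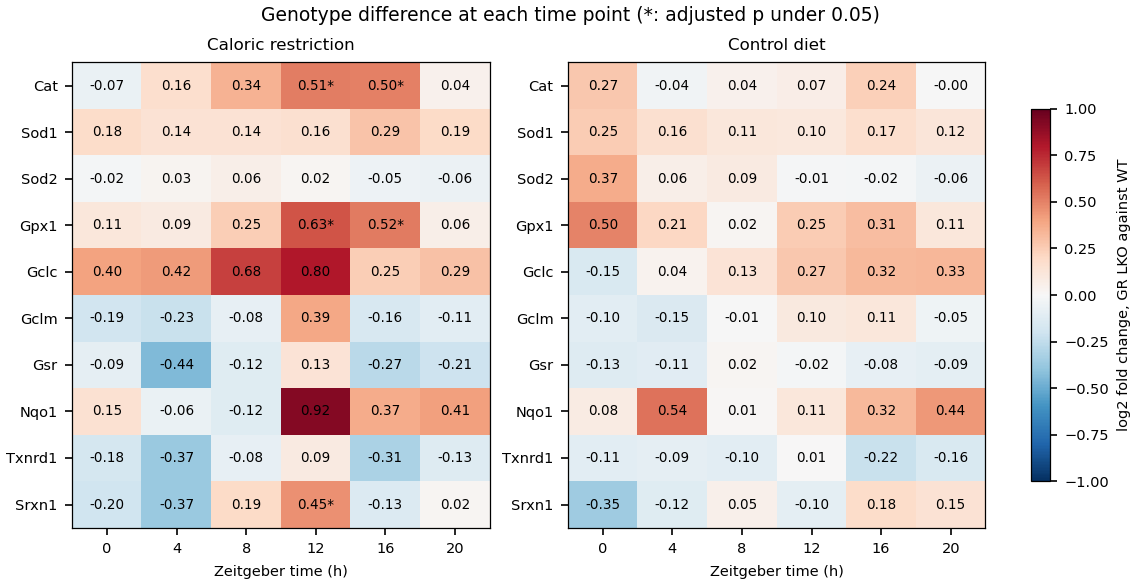
Each cell gives the log2 fold change of GR LKO against WT for 1 gene (rows) at 1 zeitgeber time in hours (columns), with caloric restriction on the left and control feeding on the right, and an asterisk where the edgeR adjusted p was under 0.05. Under caloric restriction the ZT12 column is positive throughout, from 0.02 to 0.92, and Gsr and Txnrd1 are negative at the 5 other time points.

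Catalase, encoded by Cat, splits hydrogen peroxide in peroxisomes. At ZT12 under caloric restriction its level was 2417, 2381 and 2459.9 CPM in WT and 3268, 3633 and 3494 CPM in GR LKO mice. The 6 mice formed separate groups, with every GR LKO mouse above every WT mouse (log2 fold change 0.51, SE 0.07, edgeR adjusted p 0.00569, 95% interval 0.34 to 0.69). At ZT16 the WT mice had 1988, 2031 and 2158 CPM and the GR LKO mice 2766, 2847 and 3097 CPM. Again no values overlapped (log2 fold change 0.50, SE 0.08, edgeR adjusted p 0.0141), and these WT mice were among the lowest of the whole restricted series. The ZT12 call held when each mouse was left out in turn, whereas at ZT16 the edgeR adjusted p was 0.0657 and 0.0526 without WT mouse 1 or 2 and 0.0537 without GR LKO mouse 3. At ZT0, by contrast, the WT mice had 3178, 3094 and 3432 CPM and the GR LKO mice 3196, 3099.9 and 2912 CPM. Those groups overlapped, and at ZT20 they did as well. The WT mean under restriction ran from 2059 CPM at ZT16 to 3235 CPM at ZT0, a ratio of 1.57, and the GR LKO mean from 2903 CPM at ZT16 to 3465 CPM at ZT12, a ratio of 1.19. Both genotypes thus had their lowest mean of Cat at ZT16. The ratio was larger in WT mice, and the ratios were not compared by a test. A rhythm was not called in either genotype by JTK (adjusted p 0.0748 in WT and 0.420 in GR LKO). In WT it was called by JTK on log2 CPM (adjusted p 0.0382) and by limma (adjusted p 0.00452), and the difference between the genotypes' rhythms gave a limma adjusted p of 0.0917.

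Under control feeding at ZT12 Cat stood at 3582, 3471, 3273 and 3000.3 CPM in WT and 3415, 3224, 3788 and 3535 CPM in GR LKO mice. The groups overlapped (log2 fold change 0.07, SE 0.08, edgeR adjusted p 0.827). The interaction estimate was 0.46 (SE 0.11, edgeR adjusted p 0.0749), which missed the threshold. It was called by DESeq2 (adjusted p 0.00153) and, in edgeR, without control-fed WT mouse 4 (adjusted p 0.0469). Over the day the restricted WT mice spanned 1988 to 3432 CPM (median 2857, n = 18) and the restricted GR LKO mice 2583 to 3659.5 CPM (median 3288, n = 18). The ranges overlapped, and the mean difference was called (log2 fold change 0.25, SE 0.06, edgeR adjusted p 0.00151), though not without mouse 2 of every group (adjusted p 0.0561). Diet-experiment controls had 2248, 2141 and 2149.8 CPM of Cat and the restricted mice 2072, 1449 and 1407 CPM. All 3 restricted mice were lower, 1 of them only slightly, and edgeR did not call the difference (log2 fold change -0.41, SE 0.15, edgeR adjusted p 0.0593). Without that mouse, restricted mouse 1, the log2 fold change was -0.60 and the edgeR adjusted p 0.00106, and DESeq2 called it with all 6 mice (adjusted p 0.0183), as did edgeR with a replicate block (adjusted p 0.0359). The WT libraries of the time series at ZT12, where diet and batch coincide, gave a log2 fold change of -0.47 (edgeR adjusted p 0.00356). Corticosterone left Cat at 2573, 2634 and 2487 CPM against 2933, 2683 and 2718 CPM in its controls. All 3 treated mice lay below the controls by a margin smaller than the spread among the controls (log2 fold change -0.12, SE 0.09, edgeR adjusted p 0.483).

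Gpx1 encodes the abundant selenium-containing glutathione peroxidase that reduces hydrogen peroxide in cytosol and mitochondria. At ZT12 under caloric restriction it measured 442, 336 and 385 CPM in WT and 491, 697 and 616 CPM in GR LKO mice. The highest WT mouse and the lowest GR LKO mouse were close, and the groups did not overlap (log2 fold change 0.63, SE 0.16, edgeR adjusted p 0.0354, 95% interval 0.26 to 0.99). The call was sensitive to single mice, with edgeR adjusted p of 0.103 and 0.104 without WT mouse 2 or 3 and 0.0893 and 0.0987 without GR LKO mouse 2 or 3. With the replicate number as a block it was 0.115. At ZT16 the values were 363, 308 and 318 CPM in WT and 459, 491 and 462 CPM in GR LKO mice. Here the groups stood well apart (log2 fold change 0.52, SE 0.09, edgeR adjusted p 0.0230), and the edgeR adjusted p was 0.0799 and 0.0779 without WT mouse 2 or 3 and 0.0584, 0.0802 and 0.0621 without GR LKO mouse 1, 2 or 3. With a replicate block it was 0.0773. Gpx1 was higher in GR LKO mice by the estimate at all 6 time points on both diets, with log2 fold changes from 0.06 to 0.63 under restriction and from 0.02 to 0.50 under control feeding. Over the day the restricted WT mice held 308 to 518 CPM (median 431, n = 18) and the restricted GR LKO mice 381 to 697 CPM (median 506, n = 18), and the control-fed mice 453 to 723 CPM (median 632, n = 22) and 548 to 899 CPM (median 731, n = 20). Ranges overlapped on both diets, and the mean difference was called on both (log2 fold change 0.27, edgeR adjusted p 0.000504 under restriction; 0.22, edgeR adjusted p 0.000443 under control feeding).

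The control-fed difference was widest at ZT0, where WT mice had 539, 466 and 453 CPM and GR LKO mice 769, 609.9 and 693 CPM. No values overlapped, and edgeR on these 6 libraries did not call it (log2 fold change 0.50, SE 0.12, edgeR adjusted p 0.146). It was called in 1 edgeR fit of all 12 groups (adjusted p 0.00648) and by DESeq2 (adjusted p 0.00498). At ZT12 under control feeding the values were 695, 641, 704 and 722 CPM in WT and 899, 878, 788 and 716 CPM in GR LKO mice. The lowest GR LKO mouse fell inside the WT range (log2 fold change 0.25, SE 0.09, edgeR adjusted p 0.237), and the interaction of genotype and diet was 0.39 (SE 0.18, edgeR adjusted p 0.336). The diet experiment gave 466, 429 and 356 CPM in controls and 351, 332 and 366 CPM in restricted mice. 1 control lay within the restricted range (log2 fold change -0.25, SE 0.11, edgeR adjusted p 0.0946), and without that control, mouse 3, Gpx1 was called lower in restricted mice (log2 fold change -0.36, edgeR adjusted p 0.0230). The time-series WT libraries at ZT12, with diet and batch inseparable, gave -0.85 (edgeR adjusted p 0.000800). After corticosterone Gpx1 was 607, 627 and 593 CPM against 565, 567 and 677 CPM, with the treated values inside the range of the controls (log2 fold change 0.01, SE 0.10, edgeR adjusted p 0.952).

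Superoxide dismutases supply the peroxide that Cat and Gpx1 remove: Sod1 encodes the copper-zinc enzyme of the cytosol and Sod2 the manganese enzyme of the mitochondrial matrix. Sod1 was higher in GR LKO mice by the estimate at all 6 time points on both diets, by 0.14 to 0.29 under restriction and 0.10 to 0.25 under control feeding, and edgeR called it at no single time. The clearest time was ZT16 under restriction, with 579, 620.5 and 576 CPM in WT and 711, 722 and 722 CPM in GR LKO mice. These groups did not overlap, and the adjusted p missed the threshold in edgeR (log2 fold change 0.29, SE 0.08, edgeR adjusted p 0.0842) but not in DESeq2 (adjusted p 0.00848). Over the day the restricted mice spanned 537 to 820.5 CPM (median 632, n = 18) in WT and 577 to 868 CPM (median 722, n = 18) in GR LKO, and the control-fed mice 584 to 817 CPM (median 716, n = 22) and 649.8 to 892 CPM (median 786, n = 20). The small shift was called on both diets (log2 fold change 0.18, edgeR adjusted p 0.000177 under restriction; 0.15, edgeR adjusted p 0.000393 under control feeding) and was kept when the mice of any 1 number were left out of every group. The diet experiment gave 661, 684 and 645 CPM in controls and 773, 758 and 706 CPM in restricted mice. Every restricted mouse was higher, short of the threshold in edgeR (log2 fold change 0.17, SE 0.07, edgeR adjusted p 0.0931) and past it in DESeq2 (adjusted p 0.0382). Corticosterone-treated mice had 739, 737 and 696 CPM and their controls 745, 725 and 725 CPM, overlapping (log2 fold change -0.02, SE 0.08, edgeR adjusted p 0.935).

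Sod2 was the gene that moved after corticosterone. Its controls measured 108, 109 and 104 CPM and the treated mice 80.0, 85.3 and 82.6 CPM. Both groups were tight and well apart, and Sod2 fell (log2 fold change -0.37, SE 0.08, edgeR adjusted p 0.0298). With 2 mice left in a group the call was mostly lost, at edgeR adjusted p of 0.0965, 0.124 and 0.0644 without control mouse 1, 2 or 3 and 0.102 and 0.0977 without corticosterone mouse 1 or 3. With a replicate block it was 0.0823. Neither caloric restriction (127, 128 and 117 CPM in controls, 129, 116 and 108 CPM in restricted mice, log2 fold change -0.08, SE 0.09, edgeR adjusted p 0.510) nor the genotype at ZT12 went with a called change in Sod2. At ZT12 under restriction the WT mice had 110.04, 127 and 123 CPM and the GR LKO mice 118, 128 and 119 CPM, overlapping fully (log2 fold change 0.02, SE 0.08, edgeR adjusted p 0.914, 95% interval -0.18 to 0.22). At ZT0 under control feeding WT mice had 105, 91.6 and 81.1 CPM and GR LKO mice 130.3, 116 and 115 CPM. Every GR LKO mouse was higher, not called from these libraries (log2 fold change 0.37, SE 0.11, edgeR adjusted p 0.199) and called in 1 edgeR fit of all 12 groups (log2 fold change 0.38, adjusted p 0.0406). Sod2 varied with time of day: under restriction the WT mean ran from 84.3 CPM at ZT4 to 143 CPM at ZT16 and the GR LKO mean from 85.8 CPM at ZT4 to 138 CPM at ZT16. The same ZT16 peak was found under control feeding, where the WT mean ran from 92.4 CPM at ZT0 to 124 CPM at ZT16. Sod2 was called rhythmic in restricted WT (JTK adjusted p 0.000556), restricted GR LKO (JTK adjusted p 0.00302) and control-fed WT mice (JTK adjusted p 0.00339).

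Gclc and Gclm encode the catalytic and the modifier subunit of glutamate-cysteine ligase, the enzyme that sets the rate of glutathione synthesis, and Gsr encodes the reductase that returns oxidised glutathione to its reduced form. In the diet experiment Gclc stood at 166, 144 and 138 CPM in controls and 166, 209 and 204 CPM in restricted mice. The lowest restricted mouse was level with the highest control, so the groups only just separated (log2 fold change 0.37, SE 0.11, edgeR adjusted p 0.0330). The edgeR adjusted p was 0.106 and 0.102 without control mouse 2 or 3 and 0.104 and 0.0837 without restricted mouse 2 or 3, and 0.0749 with a replicate block. The WT libraries of the time series at ZT12, where diet and batch coincide, gave a log2 fold change of 0.03 (edgeR adjusted p 0.946). Corticosterone-treated mice had 361, 286 and 267 CPM against 251, 285 and 244 CPM. 1 treated mouse was high and the groups overlapped (log2 fold change 0.23, SE 0.14, edgeR adjusted p 0.335).

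Under restriction Gclc was higher in GR LKO mice by the estimate at each time, and edgeR on the libraries of 1 time called it at none. At ZT8 the WT mice had 269, 197 and 326 CPM and the GR LKO mice 407, 479.9 and 378 CPM. At ZT12 they had 373, 201 and 224 CPM and 422, 399 and 576 CPM. At both times every GR LKO mouse lay above every WT mouse, and at ZT12 WT mouse 1 stood far above the other WT mice. Neither was called from the 6 libraries of its time (edgeR adjusted p 0.113 at ZT8, log2 fold change 0.68; edgeR adjusted p 0.0748 at ZT12, log2 fold change 0.80). In 1 edgeR fit of all 12 groups both were called (adjusted p 0.0465 at ZT8 and 0.00471 at ZT12), and DESeq2 called the first (adjusted p 0.00282). Without WT mouse 1 the ZT12 difference was 1.13 (edgeR adjusted p 0.0157). Over the day the restricted WT mice spanned 197 to 431 CPM (median 355, n = 18) and the GR LKO mice 331 to 576 CPM (median 458, n = 18). The estimate was positive at 6 of 6 time points, with separate groups at 5, and of the 10 genes Gclc had the widest mean difference in that fit (log2 fold change 0.47, SE 0.08, edgeR adjusted p 6.27e-05). Under control feeding the WT mice spanned 171 to 508 CPM (median 333, n = 22) and the GR LKO mice 263 to 512 CPM (median 374, n = 20). The mean difference was smaller and not called (log2 fold change 0.17, SE 0.07, edgeR adjusted p 0.0937), except without mouse 3 of every group (edgeR adjusted p 0.0176). Whether it differed from that under restriction was not tested over the day. Control-fed Gclc was rhythmic in both genotypes, with the WT mean running from 256 CPM at ZT16 to 442 CPM at ZT4 (JTK adjusted p 0.000476) and the GR LKO mean from 309.8 CPM at ZT12 to 453 CPM at ZT4 (JTK adjusted p 0.0184).

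Under restriction the estimate for the modifier subunit was above 0, like that of the catalytic one, at ZT12 alone. No test compared the subunits. Gclm in the restricted series at ZT12 was 204, 183 and 176 CPM in WT and 264, 210.4 and 265 CPM in GR LKO mice, with no overlap (log2 fold change 0.39, SE 0.12, edgeR adjusted p 0.0682). Without GR LKO mouse 2, the lowest of its group, it was called (log2 fold change 0.50, edgeR adjusted p 0.0304), as it was with all mice by DESeq2 (adjusted p 0.0130) and in 1 edgeR fit of all 12 groups (adjusted p 0.00739). At the other 5 time points the estimate was below 0. At ZT4, for instance, WT mice had 247, 239.7 and 224 CPM and GR LKO mice 170.4, 215 and 222 CPM, every GR LKO mouse lower (log2 fold change -0.23, SE 0.11, edgeR adjusted p 0.427). The mean over the day was therefore near 0 (log2 fold change -0.07, SE 0.05, edgeR adjusted p 0.366), and without ZT12 it was called lower (log2 fold change -0.16, edgeR adjusted p 0.00563). Corticosterone-treated mice had 203, 203 and 181 CPM against 158, 159.8 and 152 CPM in their controls. All 3 treated mice were higher (log2 fold change 0.32, SE 0.09, edgeR adjusted p 0.0680), and DESeq2 called it (adjusted p 0.0254). Between control and restricted WT mice of the diet experiment Gclm was 214, 177 and 169 CPM in controls and 173, 179 and 165 CPM in restricted mice, overlapping (log2 fold change -0.11, SE 0.10, edgeR adjusted p 0.390).

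The estimate for Gsr in restricted GR LKO mice was below 0 at every time but ZT12, with separate groups at 4 of these 5, and edgeR on the libraries of 1 time called it at none. At ZT4 the WT mice had 86.0, 89.1 and 73.2 CPM and the GR LKO mice 53.3, 62.9 and 66.6 CPM. No GR LKO mouse reached the WT range (log2 fold change -0.44, SE 0.11, edgeR adjusted p 0.160), and the difference was called by DESeq2 (adjusted p 0.0232) and in 1 edgeR fit of all 12 groups (adjusted p 0.0392). Spans over the day were 41.2 to 89.1 CPM (median 64.4, n = 18) in WT and 46.2 to 66.6 CPM (median 56.6, n = 18) in GR LKO mice. The GR LKO values filled a narrower band inside the WT range, and the mean difference was called lower (log2 fold change -0.17, SE 0.05, edgeR adjusted p 0.0159), with an edgeR adjusted p of 0.226 and 0.0568 without mouse 1 or 2 of every group. Under control feeding the spans were 51.8 to 81.6 CPM (median 64.6, n = 22) and 51.4 to 81.5 CPM (median 63.9, n = 20), which coincide (log2 fold change -0.06, SE 0.04, edgeR adjusted p 0.237). In the diet experiment Gsr was not called: controls had 47.6, 43.5 and 42.0 CPM and restricted mice 36.1, 44.2 and 42.9 CPM (log2 fold change -0.11, SE 0.10, edgeR adjusted p 0.378). The WT libraries of the time series at ZT12, where diet and batch coincide, gave a called log2 fold change of -0.38 (edgeR adjusted p 0.0271). The corticosterone controls had 55.1, 54.6 and 60.5 CPM and the treated mice 68.8, 60.6 and 54.2 CPM (log2 fold change 0.11, SE 0.11, edgeR adjusted p 0.583), and in both experiments the groups overlapped.

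Txnrd1 encodes the cytosolic thioredoxin reductase, a selenoprotein that keeps thioredoxin reduced, and Srxn1 encodes sulfiredoxin, which rescues peroxiredoxins whose active-site cysteine has been overoxidised; both are established NRF2 targets. In the diet experiment Srxn1 stood at 38.7, 35.0 and 29.2 CPM in controls and 11.6, 11.9 and 10.8 CPM in restricted mice. The restricted mice were tightly grouped at 0.334 times the control level, far below the lowest control, and this was the widest difference of any of the 10 genes in any comparison (log2 fold change -1.58, SE 0.11, edgeR adjusted p 0.000187, 95% interval -1.85 to -1.31). It held without each mouse in turn. Over all alternatives, the time-series libraries among them, the log2 fold change ran from -1.69 to -0.59 and was called each time. The WT libraries of the time series at ZT12 gave 31.7, 34.9, 32.0 and 29.0 CPM under control feeding and 19.5, 22.3 and 22.4 CPM under restriction, the same order, with diet and batch inseparable. At ZT16 restricted WT mice had 81.4, 67.0 and 77.6 CPM and control-fed WT mice 28.2, 28.2, 30.9 and 32.2 CPM, so that across the 2 tables, without a test, the order was the opposite. Within the restricted table the WT mean went from 21.4 CPM at ZT12 to 75.3 CPM at ZT16, a ratio of 3.52, and back to 45.8 CPM at ZT20. No rhythm was called (JTK adjusted p 0.991).

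Between the genotypes at ZT12, restricted WT mice had 19.5, 22.3 and 22.4 CPM of Srxn1 and GR LKO mice 30.7, 27.8 and 29.7 CPM. The groups did not overlap (log2 fold change 0.45, SE 0.09, edgeR adjusted p 0.0167), with edgeR adjusted p of 0.0636 and 0.0688 without GR LKO mouse 1 or 3, and 0.0681 with a replicate block. At ZT16 the GR LKO mice showed the peak too, at 73.4, 61.5 and 69.8 CPM, overlapping WT (log2 fold change -0.13, SE 0.11, edgeR adjusted p 0.569). At ZT4 the estimate was the lowest of the restricted series, with 74.4, 45.2 and 40.4 CPM in WT and 37.2, 42.0 and 44.9 CPM in GR LKO mice, overlapping and with 1 high WT mouse (log2 fold change -0.37, SE 0.22, edgeR adjusted p 0.5004). At ZT0 it was also below 0, with 45.1, 43.4 and 44.5 CPM in WT and 37.0, 40.0 and 38.3 CPM in GR LKO mice, every GR LKO mouse lower (log2 fold change -0.20, SE 0.06, edgeR adjusted p 0.224). The difference between the genotypes' rhythms in Srxn1 under restriction had a limma adjusted p of 0.80005. Under control feeding at ZT12 the 4 WT mice had 31.7, 34.9, 32.0 and 29.0 CPM and the 4 GR LKO mice 25.8, 33.1, 32.7 and 27.4 CPM, overlapping (log2 fold change -0.10, SE 0.10, edgeR adjusted p 0.788). Every control-fed GR LKO mouse lay below every WT mouse at ZT0 and at ZT4, and neither difference was called (log2 fold change -0.35, edgeR adjusted p 0.360; -0.12, edgeR adjusted p 0.679). The interaction of genotype and diet was 0.57 (SE 0.14, edgeR adjusted p 0.0839), called by DESeq2 alone (adjusted p 0.0226). Corticosterone-treated mice had 30.8, 28.6 and 27.2 CPM and their controls 27.5, 31.5 and 26.4 CPM. These values interleave, and no difference was called (log2 fold change 0.02, SE 0.10, edgeR adjusted p 0.937, 95% interval -0.23 to 0.27).

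Txnrd1 shared the ZT12 trough and ZT16 peak: the restricted WT mean ran from 96.4 CPM at ZT12 to 156 CPM at ZT16, and the GR LKO mean from 103 CPM at ZT12 to 125 CPM at ZT16. At ZT16 the WT mice had 161, 156 and 151 CPM and the GR LKO mice 132, 110.00 and 133 CPM. Every GR LKO mouse was lower, short of the threshold in edgeR on these libraries (log2 fold change -0.31, SE 0.10, edgeR adjusted p 0.126) and past it in DESeq2 (adjusted p 0.0465). In 1 edgeR fit of all 12 groups Txnrd1 was called lower at ZT16 (adjusted p 0.0287) and at ZT4 (adjusted p 0.0254). The restricted WT mice spanned 94.8 to 161 CPM (median 122, n = 18) and the GR LKO mice 88.3 to 133 CPM (median 109, n = 18) over the day. The mean difference was called lower (log2 fold change -0.17, SE 0.04, edgeR adjusted p 0.00373), with an edgeR adjusted p of 0.111 without mouse 1 of every group. Control-fed mice spanned 91.4 to 119 CPM (median 110.2, n = 22) in WT and 72.6 to 114 CPM (median 104, n = 20) in GR LKO. The GR LKO values reached lower, and the mean difference was not called by edgeR (log2 fold change -0.11, SE 0.04, edgeR adjusted p 0.0600), was called without ZT12 (edgeR adjusted p 0.0454) and was called by DESeq2 (adjusted p 0.0496). The diet experiment gave 79.8, 82.8 and 83.2 CPM in controls and 69.0, 91.5 and 84.3 CPM in restricted mice, which spread to both sides of the controls (log2 fold change -0.01, SE 0.11, edgeR adjusted p 0.967). Corticosterone-treated mice had 108, 85.3 and 97.6 CPM against 90.2, 80.3 and 88.1 CPM, also overlapping (log2 fold change 0.17, SE 0.11, edgeR adjusted p 0.372).

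Nqo1 encodes a quinone reductase and is among the most used reporters of NRF2 activity, although mouse liver expresses it weakly. Its fitted level rested on 35.0 to 627 counts per library, the fewest of the 10 genes, and it varied most between mice: the median coefficient of variation within groups of the restricted series was 26.2%, against 3.59% for Sod1. Controls of the diet experiment had 3.53, 4.79 and 3.24 CPM and the restricted mice 5.62, 7.04 and 5.65 CPM. Every restricted mouse was higher (log2 fold change 0.66, SE 0.18, edgeR adjusted p 0.0221), with an edgeR adjusted p of 0.0769 and 0.0663 without control mouse 1 or 3 and 0.0833 without restricted mouse 2. The WT mice of the time series at ZT12 showed the same order, 6.23, 6.17, 4.95 and 6.06 CPM under control feeding and 17.8, 7.81 and 11.2 CPM under restriction, where diet and batch coincide. Over the day restricted WT mice held 4.75 to 32.0 CPM (median 11.6, n = 18) and control-fed WT mice 3.38 to 8.50 CPM (median 5.57, n = 22), again across tables.

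Between the genotypes at ZT12 under restriction Nqo1 was 17.8, 7.81 and 11.2 CPM in WT and 25.1, 16.5 and 28.3 CPM in GR LKO mice. WT mouse 1 lay inside the GR LKO range, and the difference, the widest estimate of the 10 at that time, was not called (log2 fold change 0.92, SE 0.31, edgeR adjusted p 0.0923). Without that mouse it was (log2 fold change 1.28, edgeR adjusted p 0.0351), and with all 6 mice it was called by DESeq2 (adjusted p 0.0136) and by edgeR with a replicate block (adjusted p 0.0428). The same mouse was the highest WT mouse at that time for Gclc, Gpx1, Gclm, Nfe2l2, Ugdh and Osgin1, and the lowest for Srxn1 and Sod2. Over the day under restriction the mean difference was not called (log2 fold change 0.27, SE 0.14, edgeR adjusted p 0.166), except without mouse 1 of every group (edgeR adjusted p 0.0342). Under control feeding the estimate for Nqo1 was positive at 6 of 6 time points with overlapping groups at each, over spans of 3.38 to 8.50 CPM (median 5.57, n = 22) in WT and 3.49 to 9.08 CPM (median 6.17, n = 20) in GR LKO mice. The mean difference was called (log2 fold change 0.24, SE 0.08, edgeR adjusted p 0.0319), though the edgeR adjusted p was 0.309, 0.0755 and 0.261 without mouse 1, 2 or 3 of every group. Corticosterone-treated mice had 4.09, 3.65 and 3.06 CPM and their controls 4.45, 6.28 and 2.68 CPM, overlapping and with wide spread among the controls (log2 fold change -0.32, SE 0.33, edgeR adjusted p 0.599, 95% interval -1.08 to 0.45).

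**Figure D2:**
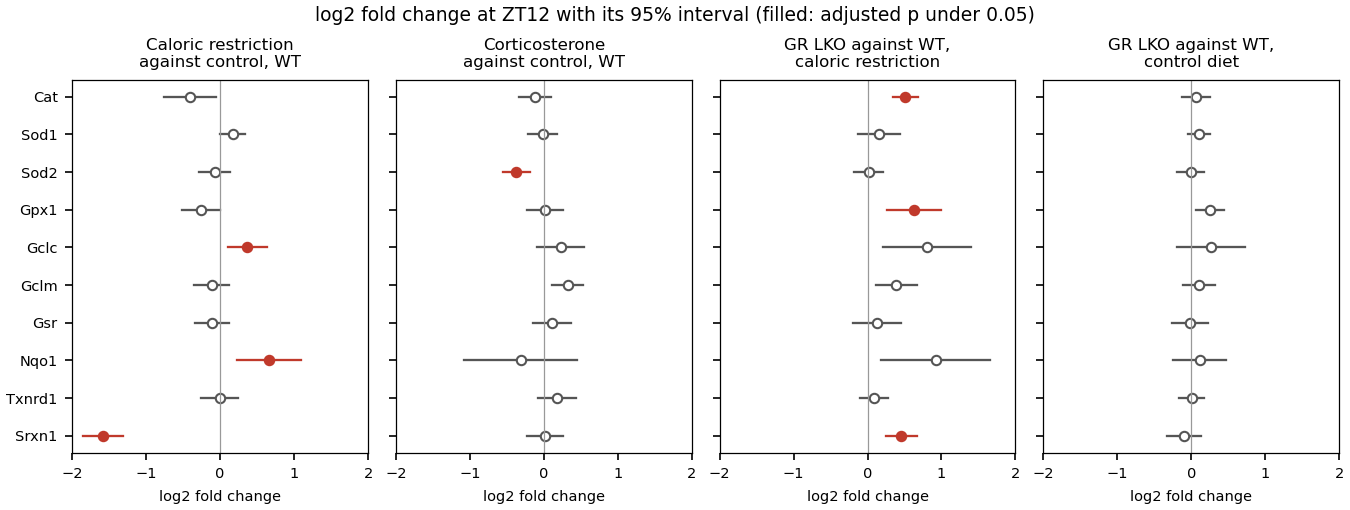
Each point is the log2 fold change of 1 gene at ZT12 with its 95% interval (edgeR), for caloric restriction and for corticosterone against control in WT mice, and for GR LKO against WT on each diet; filled red points had an adjusted p under 0.05. Srxn1 stands apart at -1.58 in the diet panel, Sod2 at -0.37 is the filled point of the corticosterone panel, and all 10 estimates of the restricted genotype panel are above 0, with intervals that cross 0 for some.

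Daily rhythm was tested on variance-stabilised values with JTK_CYCLE for a 24 h wave sampled every 4 h. In restricted WT mice 2 of the 10 were called rhythmic, Sod2 and Gpx1, where 37.1% of 12624 genes were, and in restricted GR LKO mice 3, Sod2, Gpx1 and Nqo1, where 31.6% of 12743 genes were. In control-fed WT mice 8 of the 10 were called, where 44.6% of 12481 genes were. The remaining 2 were Cat (JTK adjusted p 0.0644) and Txnrd1 (JTK adjusted p 1.00), and Cat was called by JTK on log2 CPM (adjusted p 0.0318). In control-fed GR LKO mice 3 were called, Gclc, Gclm and Gsr, where 38.6% of 12468 genes were. Without the count filter 2 of these calls were lost, Nqo1 in restricted GR LKO mice (JTK adjusted p 0.0600) and Gsr in control-fed GR LKO mice (JTK adjusted p 0.0505). Of the 4 groups, control-fed WT mice thus had the most rhythmic genes among the 10 by JTK, and the control series also had the most mice. The gap depended on the tool. With limma in place of JTK, 8 of the 10 were called in control-fed WT mice (56.1% of all genes) and 6 in restricted WT mice (54.7%). In GR LKO mice limma called 5 under control feeding (51.1%) and 3 under restriction (50.5%). The called peaks fell early in the light phase for Gclc, Gsr and Srxn1 (JTK phase ZT4), at ZT8 for Gclm and Nqo1, at ZT12 for Sod1 and Gpx1 and at ZT16 for Sod2. Sod1, for example, ran from 666 CPM at ZT0 to 777 CPM at ZT12 (JTK adjusted p 0.0100), Gclm from 176 CPM at ZT20 to 218 CPM at ZT8 (JTK adjusted p 0.000362) and Gsr from 57.3 CPM at ZT16 to 72.5 CPM at ZT8 (JTK adjusted p 0.00168). Under restriction the WT rhythm of Gpx1 had its JTK phase at ZT4, from 329.6 CPM at ZT16 to 479 CPM at ZT0 (JTK adjusted p 0.00858). Under control feeding it ran from 486 CPM at ZT0 to 691 CPM at ZT12 (JTK adjusted p 0.0149), and the phases were not compared by a test. The difference between the genotypes' rhythms was tested with limma on the sine and cosine of time: 0 of the 10 passed under restriction, where 0.790% of all genes did (unadjusted p under 0.05 for 3 of the 10 and 1613 of 13041 genes). Under control feeding 0 passed, where 0.405% of all genes did (unadjusted 1 of the 10 and 1288 of 12834 genes), and no other tool was run for it. The lowest limma adjusted p were 0.0917 for Cat and 0.102 for Gpx1, both under restriction. With the mice of 1 number left out of every group, which lowers the groups to 2 or 3 mice, 0 to 1 of the 10 and 642 to 1253 of all genes were called in restricted WT mice, and 0 to 1 of the 10 and 565 to 1145 of all genes were called in restricted GR LKO mice. In the same way 3 to 7 of the 10 and 3151 to 4005 of all genes were called in control-fed WT mice, and 0 to 2 of the 10 and 1594 to 3917 of all genes were called in control-fed GR LKO mice. Different numbers called in WT and GR LKO mice do not show that their rhythms differ.

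**Figure D3:**
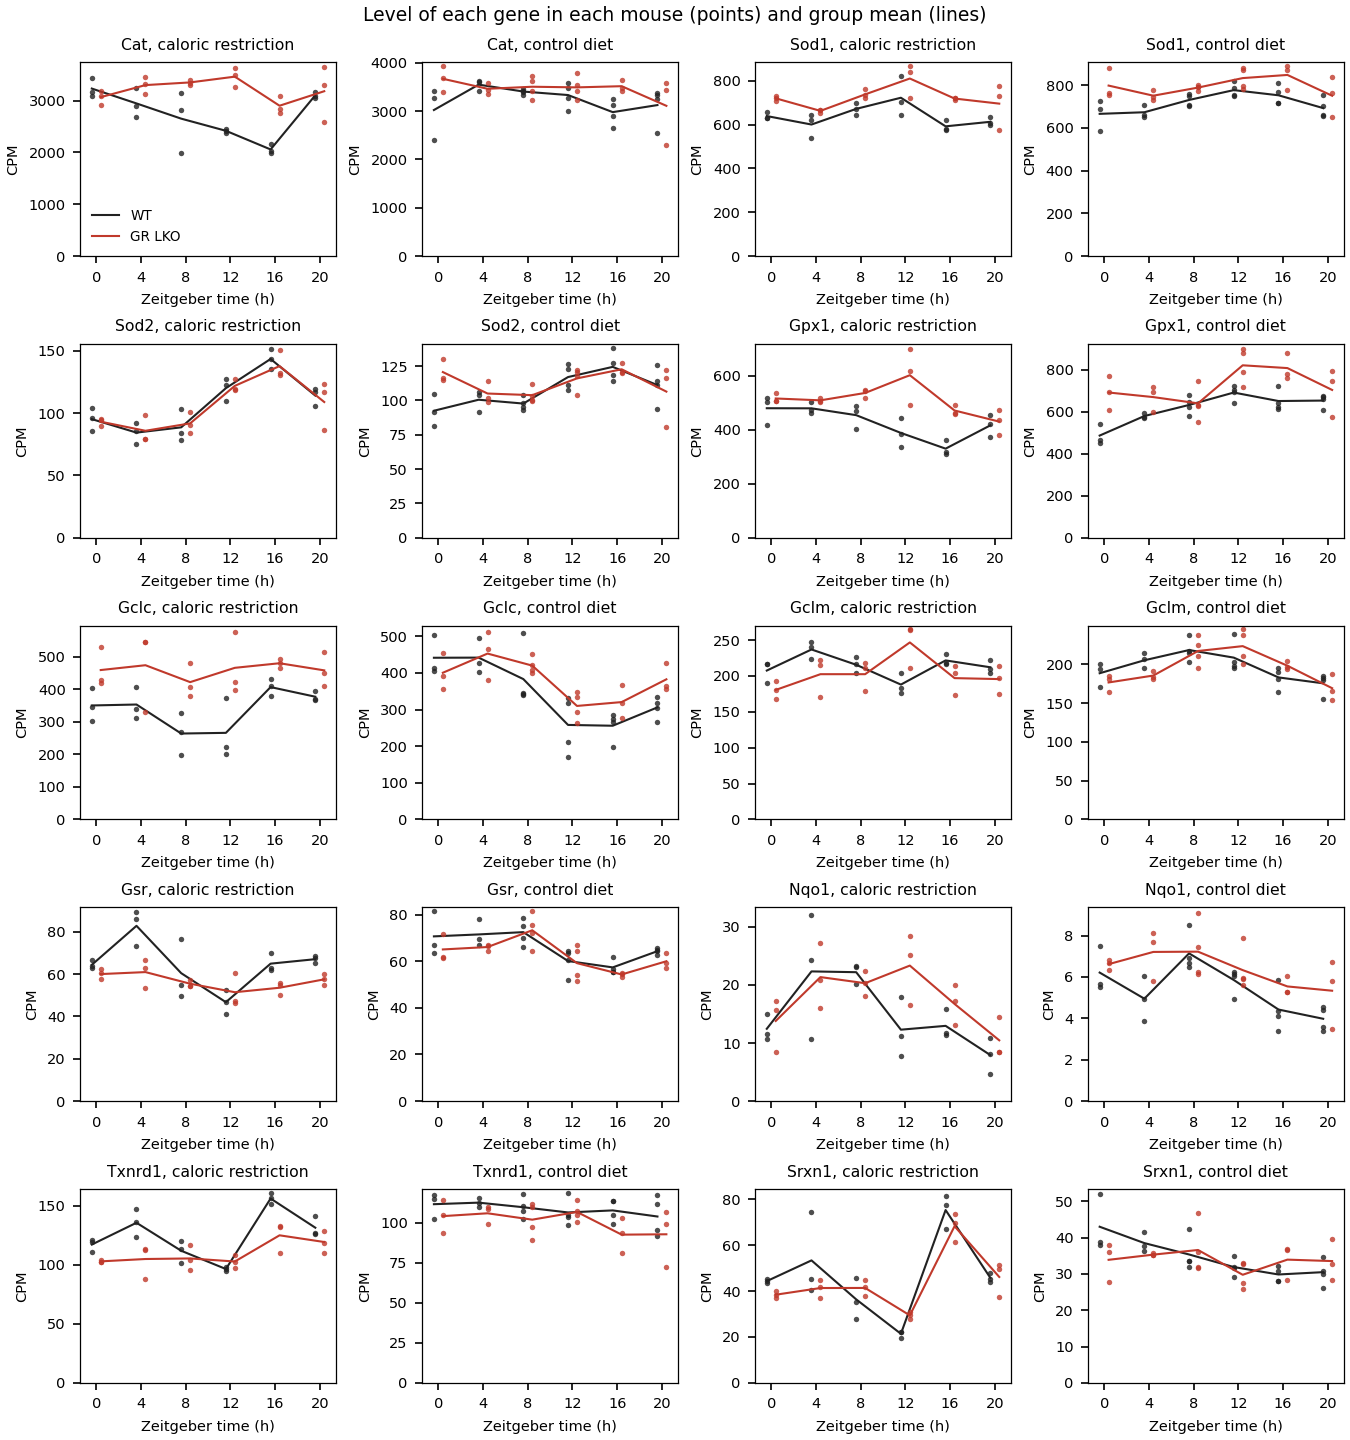
For each gene the CPM of every mouse (points) and the group mean (lines) is plotted against zeitgeber time in hours, WT in black and GR LKO in red, with caloric restriction and control feeding in separate panels with their own axes from 0. Srxn1 under restriction has its low at ZT12 and its high at ZT16, and Cat in restricted WT mice has means of 2419 CPM at ZT12 and 2059 CPM at ZT16, against 3465 and 2903 CPM in GR LKO mice.

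The regulators of the pathway were read in the same way. Nfe2l2 (NRF2) at ZT12 in the diet experiment was 52.6, 58.0 and 56.0 CPM in controls and 66.8, 63.6 and 73.4 CPM in restricted mice, with no overlap (log2 fold change 0.29, SE 0.08, edgeR adjusted p 0.0191). In the restricted series it was 69.5, 63.2 and 67.7 CPM in WT and 84.6, 83.6 and 96.3 CPM in GR LKO mice, again without overlap (log2 fold change 0.40, SE 0.09, edgeR adjusted p 0.0285). The edgeR adjusted p of Nfe2l2 was 0.0728 without control mouse 1 in the diet experiment and, between the genotypes, 0.0533, 0.0893 and 0.0871 without WT mouse 1, 2 or 3 and 0.0563 and 0.0912 without GR LKO mouse 1 or 3. Under control feeding at ZT12 it was 70.7, 58.7, 60.4 and 48.0 CPM in WT and 76.5, 70.7, 98.1 and 89.1 CPM in GR LKO mice. There the ranges touched and the difference was not called by edgeR (log2 fold change 0.49, SE 0.14, edgeR adjusted p 0.127) and was by DESeq2 (adjusted p 0.0224). Over the day it was called on both diets (log2 fold change 0.18, edgeR adjusted p 0.00330 under restriction; 0.28, edgeR adjusted p 0.000282 under control feeding). After corticosterone Nfe2l2 was 44.5, 44.4 and 40.8 CPM against 67.4, 53.2 and 54.4 CPM, all 3 treated mice lower and short of the threshold in edgeR (log2 fold change -0.43, SE 0.11, edgeR adjusted p 0.0628) and past it in DESeq2 (adjusted p 0.0366). Bach1, the repressor, was 89.4, 87.0 and 79.5 CPM in the diet controls and 56.3, 55.8 and 59.4 CPM in restricted mice. The groups stood wide apart (log2 fold change -0.58, SE 0.07, edgeR adjusted p 0.000941). In the time series Bach1 was called rhythmic by JTK in both genotypes on both diets. Its restricted WT mean was 61.3 CPM at ZT12 and 26.6 CPM at ZT16. At ZT12, the only time of the diet experiment, restricted mice had more activator RNA and less repressor RNA. Of the 3 members called there, Gclc and Nqo1 were higher and Srxn1 was lower. After corticosterone Bach1 was 45.5, 62.7 and 60.3 CPM against 28.1, 43.2 and 34.6 CPM, every treated mouse higher. This was not called by edgeR (log2 fold change 0.67, SE 0.19, edgeR adjusted p 0.0712) and was by DESeq2 (adjusted p 0.0131) and by edgeR with a replicate block (adjusted p 0.0346). Nfe2l1, which encodes the related factor NRF1, was 106, 117 and 126 CPM in controls and 166, 161 and 158 CPM in restricted mice, also separate (log2 fold change 0.47, SE 0.08, edgeR adjusted p 0.00342). Like Nfe2l2, it was called higher in GR LKO mice over the day under restriction (log2 fold change 0.16, edgeR adjusted p 0.00280) and under control feeding (0.12, edgeR adjusted p 0.00300). At ZT12 edgeR called it between the genotypes on neither diet (adjusted p 0.0644 under restriction and 0.485 under control feeding). Keap1 and the small MAF gene Mafg were called in none of these comparisons (edgeR adjusted p for the diet 0.0849 and 0.140), although without control mouse 2 Keap1 was called lower in restricted mice (edgeR adjusted p 0.0302). Levels of RNA do not show NRF2 activity, which is set mainly by how fast the protein is degraded.

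A further 70 genes of these pathways, covering regulators, peroxide and superoxide removal, glutathione, thioredoxin, detoxification targets of NRF2, NADPH supply and selenium use, were taken from a list for comparison. That list was chosen with earlier results of these data known, so its counts and medians are a description and not an independent test. Caloric restriction in WT mice gave 18 higher and 13 lower of 69 tested (47.1% of all genes called), and corticosterone 4 higher and 2 lower of 68 tested (8.11% of all). Between the genotypes at ZT12 there were 14 higher and 4 lower of 68 tested under restriction (15.3% of all) and 1 higher and 2 lower of 66 tested under control feeding (2.08% of all). The genotype comparison over the day gave 14 higher and 8 lower of 69 tested under restriction (30.0% of all) and 24 higher and 4 lower of 69 tested under control feeding (17.6% of all). At ZT12 under restriction the peroxide and superoxide list had 0 called of 12. The thioredoxin list had 0 of 7 and the selenium list 0 of 4. Regulators had 1 higher and 2 lower of 9, glutathione genes 0 and 2 of 10 and NADPH genes 2 and 0 of 7. For the diet 7 detoxification targets were higher and 4 lower of 19. Between the genotypes under restriction 0 of them were called at ZT0 and 1 higher and 1 lower at ZT4, where 0.502% and 0.690% of all genes were called. At ZT8 1 was called higher and at ZT16 3, where 2.55% and 4.54% of all genes were called. Over the day under restriction the called targets went both ways. They included Abcc4, Abcc3 and Ces1g, higher in GR LKO mice, and Gstp1 and Cbr1, lower (log2 fold change -0.87, edgeR adjusted p 1.82e-05, and -0.37, edgeR adjusted p 0.00642). Among the 19 detoxification targets at ZT12 under restriction, 11 were called higher in GR LKO mice and 0 lower, where 15.3% of all genes were called (873 of 11759 higher). They had a median log2 fold change of 0.62 against 0.42 for the 10 genes and -0.00 for all genes tested. The widest was the exporter gene Abcc4, with 3.72, 2.51 and 4.94 CPM in WT and 13.9, 12.7 and 17.7 CPM in GR LKO mice (log2 fold change 1.97, SE 0.25, edgeR adjusted p 0.00347). Next were Ugdh, with 176, 107 and 104 CPM and 331, 258 and 442 CPM (log2 fold change 1.41, SE 0.27, edgeR adjusted p 0.0142), and Osgin1, with 152, 71.2 and 84.1 CPM and 242, 234 and 302 CPM (log2 fold change 1.34, SE 0.28, edgeR adjusted p 0.0201). No groups overlapped for these 3. Called lower were Glrx, the gene of glutaredoxin, at 107, 97.2 and 101 CPM in WT and 45.2, 38.1 and 43.3 CPM in GR LKO mice (log2 fold change -1.27, SE 0.09, edgeR adjusted p 0.000484), and the small MAF gene Maff, at 14.9, 15.3 and 12.2 and 5.93, 4.57 and 5.19 CPM (log2 fold change -1.44, SE 0.16, edgeR adjusted p 0.00171). Ggct (log2 fold change -0.85, SE 0.23, edgeR adjusted p 0.0464) and the regulator Cul3 (-0.36, SE 0.09, edgeR adjusted p 0.0381) were called lower too. Glrx was lower in GR LKO mice under control feeding as well (log2 fold change -0.77, SE 0.09, edgeR adjusted p 0.00257), with 38.9, 40.0, 42.7 and 39.2 CPM in WT and 21.1, 23.8, 26.9 and 22.7 CPM in GR LKO mice.

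Maff was also the pathway gene with the widest rise after corticosterone, from 0.574, 1.49 and 0.893 CPM to 17.9, 26.0 and 15.9 CPM, and with caloric restriction, from 4.36, 2.46 and 3.48 CPM to 16.6, 17.1 and 28.4 CPM. Both sets of groups were far apart (log2 fold change 4.31, edgeR adjusted p 0.00141; 2.59, edgeR adjusted p 0.000614). Osgin1 went the other way after corticosterone, from 167, 174 and 248 CPM to 47.9, 47.4 and 45.3 CPM (log2 fold change -2.07, SE 0.16, edgeR adjusted p 0.00141), and was lower in restricted mice too (log2 fold change -0.72, SE 0.20, edgeR adjusted p 0.0222). Gstp1 was lower in restricted mice (1625, 971 and 1410.02 CPM to 235, 339 and 346 CPM, log2 fold change -2.12, SE 0.23, edgeR adjusted p 0.000565) and in control-fed GR LKO mice at ZT12 (log2 fold change -1.06, SE 0.22, edgeR adjusted p 0.0446); its sequence is nearly shared with a neighbouring Gstp gene, so its counts may include reads of that copy. Hmox1, the heme oxygenase gene, was higher in control-fed GR LKO mice at ZT12, at 7.36, 8.14, 5.67 and 4.79 CPM in WT and 13.9, 10.2, 19.0 and 19.3 CPM in GR LKO mice (log2 fold change 1.26, SE 0.24, edgeR adjusted p 0.0335).

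Markers of cell types moved in some of the same comparisons, and bulk liver cannot tell fewer cells of a type from less RNA per cell. Of all genes tested, 47.1% were called for the diet and 8.11% after corticosterone. Between the genotypes under restriction 2.55% were called at ZT8, 15.3% at ZT12 and 4.54% at ZT16. Over the day the share was 30.0% under restriction and 17.6% under control feeding. At ZT12 under restriction 5 of 7 hepatocyte markers were called lower in GR LKO mice. Their summed level was 166022, 170841 and 172110 CPM in WT and 122703, 131870 and 113366 CPM in GR LKO mice, Alb having the highest CPM. Tat, a marker on that list, is itself a known target of the receptor. Of 8 Kupffer and myeloid markers, 3 were called higher (Clec4f, Csf1r and Vsig4), with sums of 43.2, 71.0 and 51.9 CPM and 118, 92.7 and 153 CPM and Clec4f having the highest. Both sums separated the genotypes completely. Also called at that time were endothelial Lyve1 and erythrocyte Alas2 higher and cholangiocyte Sox9 lower, and at ZT8 and ZT16 hepatocyte Apoa1 lower and Alas2 higher. For the diet 4 hepatocyte markers were called higher and 1 lower of 7, with sums of 89122, 88440.1 and 94651 CPM in controls and 159208, 160506 and 166800 CPM in restricted mice, while of 6 endothelial markers 4 were called higher, with sums of 116, 149 and 153 CPM and 194, 194 and 222 CPM, Kdr having the highest CPM in controls and Clec4g in restricted mice. Also called for the diet were 2 of 4 cholangiocyte markers higher (Sox9 and Krt19; sums 49.0, 46.7 and 47.5 CPM and 58.3, 38.2 and 38.6 CPM), and of 6 stellate markers 2 higher (Dcn and Des) and 1 lower (Col1a1; sums 199, 213 and 168 CPM and 282, 249 and 286 CPM). Lymphocyte Cd79a and erythrocyte Alas2 were called lower for the diet and adipocyte Fabp4 higher. After corticosterone, the comparison in which Sod2 was called, Tat, Hnf4a and Marco were called higher and Kdr, Lrat and Sox9 lower. The hepatocyte sums were 106867, 100044 and 105832 CPM in controls and 106506, 108401 and 97615 CPM in treated mice, and those of the Kupffer and myeloid list 66.9, 84.2 and 94.9 CPM and 86.9, 136 and 112 CPM. Over the day under restriction 6 of 7 hepatocyte markers were called lower in GR LKO mice, with sums of 109766 to 172110 CPM in WT and 99055 to 134671 CPM in GR LKO mice, and 4 of 6 endothelial markers were called higher, with sums of 149 to 213 CPM and 168 to 237 CPM. Pdgfrb, Spp1, Cd79a and Alas2 of other lists were called higher there. Under control feeding over the day Alas2 was called higher and 5 of 7 hepatocyte markers were called lower, with sums of 78769 to 115113 CPM in WT and 67952 to 99729 CPM in GR LKO mice. No hepatocyte, endothelial or Kupffer and myeloid marker was at 0; the cholangiocyte marker Epcam and the neutrophil marker Ly6g were at 0 in every mouse at ZT12. The part of these shifts in the results for the 10 genes was not tested.

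Promoter windows, 250 bases before to 50 after the annotated start, were at hand for 8 of the 10 genes (RefSeq, GRCm38.p6); Txnrd1 has 3 of the 10 windows, and Gclc and Gsr are not in the table. They were searched on both strands for TGACNNNGC, the core of the antioxidant response element, GTAAACA, the FoxO core, CACGTG, the E-box, and AGAACA, a half-site of the glucocorticoid response element. The antioxidant core occurred in 4 windows, those of Sod1, Gclm, the second of Txnrd1 and Srxn1, and in 12.39% of all 32851 promoter windows. The glucocorticoid half-site occurred in 3 (Cat, Gclm and the first of Txnrd1) and in 18.97% of all. The FoxO core and the E-box occurred in 0 of the 10 windows and in 3.65% and 7.15% of all. A match describes these letters in a short window and is not a binding site, and variants of the core were not searched for. The 4 windows with the antioxidant core are shown because that is the element NRF2 binds: Sod1 at chr16:90220512-90220811 (plus strand), Gclm at chr3:122245307-122245606 (plus strand), Txnrd1 at chr10:82858956-82859255 (plus strand) and Srxn1 at chr2:152105274-152105573 (plus strand). They read 5′ to 3′ along the gene, and the capitals mark the core, which in all 4 lies on the opposite strand, 56 bases before the start in Sod1, 134 in Gclm, 92 in Txnrd1, and 28 after it in Srxn1.
Sod1: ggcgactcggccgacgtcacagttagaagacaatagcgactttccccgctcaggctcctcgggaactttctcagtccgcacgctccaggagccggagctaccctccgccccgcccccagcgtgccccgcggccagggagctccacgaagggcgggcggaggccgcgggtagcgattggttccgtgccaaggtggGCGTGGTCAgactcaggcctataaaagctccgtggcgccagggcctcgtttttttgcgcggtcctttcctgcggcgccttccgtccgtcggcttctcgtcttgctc
Gclm: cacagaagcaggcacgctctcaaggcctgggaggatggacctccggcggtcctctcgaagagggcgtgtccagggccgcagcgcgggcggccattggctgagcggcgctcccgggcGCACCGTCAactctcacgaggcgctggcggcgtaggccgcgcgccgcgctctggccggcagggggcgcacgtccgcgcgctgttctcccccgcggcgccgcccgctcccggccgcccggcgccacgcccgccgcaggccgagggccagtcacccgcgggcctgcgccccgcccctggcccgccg
Txnrd1 (second window): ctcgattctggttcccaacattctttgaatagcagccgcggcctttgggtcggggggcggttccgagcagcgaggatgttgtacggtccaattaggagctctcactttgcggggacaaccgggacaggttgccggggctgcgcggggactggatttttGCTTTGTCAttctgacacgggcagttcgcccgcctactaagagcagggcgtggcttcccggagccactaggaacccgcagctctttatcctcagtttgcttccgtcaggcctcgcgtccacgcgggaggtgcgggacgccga
Srxn1: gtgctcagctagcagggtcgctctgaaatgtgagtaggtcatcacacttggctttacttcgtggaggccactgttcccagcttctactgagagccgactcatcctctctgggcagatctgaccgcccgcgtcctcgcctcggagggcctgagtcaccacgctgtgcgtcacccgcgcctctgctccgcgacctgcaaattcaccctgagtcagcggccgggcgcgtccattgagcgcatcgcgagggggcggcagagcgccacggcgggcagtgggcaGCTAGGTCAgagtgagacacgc

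The 10 genes lie on several chromosomes (Cat and Srxn1 on chromosome 2, Gpx1 and Gclc on 9, Gsr and Nqo1 on 8). Gclm, Gsr and Txnrd1 overlap other annotated genes, Txnrd1 among them Eid3, and it is not stated how the counting used the strand. By the shape of the 12 group means of a diet (log2 CPM, 6 time points of 2 genotypes), the gene most like Cat under restriction was Raet1d (Pearson r 0.933), and the gene most like Gpx1 was Mrpl14 (Pearson r 0.958). For Gclc it was Mmrn2 (Pearson r 0.944), for Srxn1 Dbnl (Pearson r 0.967) and for Sod2 Twnk (Pearson r 0.984). Under control feeding the closest to Gpx1 was Apoe (Pearson r 0.966) and to Gclm Abca8a (Pearson r 0.970). These were the highest of 8877 genes under restriction and 8849 under control feeding, the means share libraries, and no test was made. None of the 3 most similar genes of any of the 10, on either diet, was another of the 10.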

How the data were processed

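The files used were the 4 deposited gene tables of estimated counts, which the authors made with Salmon 1.8.0 and tximport 1.18.0 after FastQC 0.11.9, on mm10; the deposited table of variance-stabilised values (6 columns) was not used. Counts were rounded to whole numbers for the tests, and 27244 of 27654 gene IDs had a symbol (410 had none, with 0.107% of counts). In R 4.3.3, edgeR 4.0.16 (TMM, filterByExpr with a minimum count of 10, quasi-likelihood F test, Benjamini-Hochberg over all genes tested) gave the 17 differences between groups. Levels are CPM; on the log scale a prior count of 2 was added. Rhythm was tested with JTK_CYCLE written in R, on DESeq2 1.42.0 variance-stabilised values, period 24 h, and rhythm difference with limma 3.58.1. The tests were also run on simulated data with known changes. Each library is 1 mouse. The main tests used no pairing: in 0 of 14 comparisons did every pair of equal number correlate above 0.1. With so few pairs this cannot exclude a shared cohort or processing. Under control feeding at ZT0 the 3 pairs had r from 0.00386 to 0.145, and all 3 correlated best with their own number. All 102 pairs of libraries in a group differed by more than counting error (chi-square per degree of freedom at least 10.4, median 22.5). Depth left the least count, 35.0, to Nqo1. Alternatives were DESeq2, RLE size factors, no count filter, replicate number as a block, each mouse left out, 1 fit of all 12 groups of a diet, ZT12 left out of the fits over the day, time-series libraries for the diet effect, log2 CPM, and limma for rhythm. Pathway genes named are among those with the widest called changes in a comparison or on the list of regulators. The 10 members, the pathway list and the marker lists were chosen with earlier results of these data known.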

Additional observations from a re-analysis of the deposited data

Results flagged for a closer look

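In 7 of 60 groups of 4 control-fed mice (6 groups for each of 10 genes), 1 mouse lay far from the other 3, its gap to the nearest exceeding Dixon's 95% limit for 4 values. Chance gives about 1 in 20 where groups are independent, and these share libraries between genes. At ZT8 in WT mice Gclc was 508 CPM in mouse 3 (others 339 to 344) and Srxn1 was 42.3 CPM in mouse 4 (others 31.9 to 33.6). At ZT12 in WT mice Gclm was 239 CPM in mouse 2 (others 195 to 203) and Nqo1 was 4.95 CPM in mouse 3 (others 6.06 to 6.23), and in GR LKO mice Nqo1 was 7.86 CPM in mouse 3 (others 5.60 to 5.95). Gsr was 61.8 CPM in WT mouse 4 at ZT16 (others 55.5 to 56.5), and Cat was 2549 CPM in WT mouse 4 at ZT20 (others 3251 to 3365). Mouse numbers do not link mice across time points. Under caloric restriction the GR LKO mice all lay above the WT mice at 1 time and all below at another for 2 of the 10 genes. The share of all genes that did so is not given, so this count cannot be set against it. The log2 fold change of Gclm was 0.39 at ZT12 and -0.23 at ZT4, a gap of 0.61, and -0.16 at ZT16, a gap of 0.55; that of Srxn1 was 0.45 at ZT12 and -0.20 at ZT0, a gap of 0.65. These differences between time points were not tested.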

How the results depend on the processing

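RLE size factors and no count filter left the number of the 10 genes called within 1.5 times its value in every comparison they were applied to; without the filter the rhythm calls of Nqo1 in restricted GR LKO mice and Gsr in control-fed GR LKO mice were lost. In what follows, the percentage in brackets is the share of all genes called in the same fit. With DESeq2 the number of the 10 called was 5 (46.5%) for the diet effect at ZT12, 2 (11.9%) for corticosterone and 2 (3.71%) for the interaction. Between genotypes it was 1 (3.74%) at ZT4, 1 (5.90%) at ZT8, 5 (17.6%) at ZT12 and 4 (7.90%) at ZT16 under restriction, and 1 (3.55%) at ZT0 and 1 (5.43%) at ZT16 under control feeding. In 1 edgeR fit of all 12 groups it was 2 (2.75%) at ZT4, 1 (5.55%) at ZT8 and 5 (21.5%) at ZT12 under restriction and 2 (4.91%) at ZT0 under control feeding. With a replicate block it was 0 (4.63%) for corticosterone and 1 (2.41%) at ZT16 under restriction. At ZT12 under restriction the block lost Gpx1 and Srxn1 and gained Nqo1, and for the diet it lost Gclc and gained Cat. The WT libraries of the time series gave 5 (38.1%) for the diet effect at ZT12, and there Nr3c1 had a log2 fold change of 0.25 (edgeR adjusted p 0.0328) against -0.08 in the diet experiment. With limma in place of JTK 6 (54.7%) were rhythmic in restricted WT mice and 5 (51.1%) in control-fed GR LKO mice. Leaving out each mouse in turn gave 1 to 4 of the 10 and 4512 to 6471 genes for the diet effect, 0 to 1 and 206 to 1008 for corticosterone, 1 to 5 and 899 to 1329 at ZT12 and 0 to 1 and 234 to 346 at ZT16 under restriction, and 0 to 1 and 49 to 148 for the interaction. Leaving out each mouse number gave 0 to 1 rhythmic genes of the 10 in restricted WT, 0 to 1 in restricted GR LKO, 3 to 7 in control-fed WT and 0 to 2 in control-fed GR LKO mice. Left-out fits have fewer mice; otherwise the cause was not tested. Of 2330 single values for the 10 genes under an alternative, 2213 stayed on the same side of the threshold, 72 no longer passed it, 45 newly passed it and 0 changed sign while called. Values that were not called could change sign within the 2213. Depth limits Nqo1 most, which had 35.0 counts in 1 library.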
